A study of Mus musculus with 2 samples.

Results

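The miR-130 and miR-301 family was examined on single-colour Agilent miRNA arrays of cultures that the labels call mouse myeloid-derived suppressor cells, which are immature cells able to hold back T cell responses. Its 4 members, mmu-miR-130a-3p, mmu-miR-130b-3p, mmu-miR-301a-3p and mmu-miR-301b-3p, were taken by name, and the species prefix is left out below. The same name rule also took the 4 opposite (-5p) arms, so that 8 of the 1080 miRNA names on the array belong to it. Bone marrow cells of C57BL/6 mice were grown for 4 days in medium with 5% serum. One culture received GM-CSF, which drives the growth of granulocytes and macrophages, at 40 ng/ml. To the same GM-CSF dose the second culture added 40 ng/ml IL-6, an inflammatory cytokine. Both cultures thus carried GM-CSF, and IL-6 is the only difference that the labels state. Each culture had 1 array, and the labels do not say how many animals it came from. The comparison therefore has no replicate check and no p-value, and the number of arrays limits its precision.

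miRNAs are short RNAs that pair with messenger RNAs, mainly through their seed, and lower the output of those messengers. The members of this family share a seed and so are predicted to share targets. In human neutrophil precursors miR-130a has been reported to repress Smad4, a mediator of TGF-beta signalling, and C/EBP-epsilon, a transcription factor of late granulocyte maturation. miR-301a has been linked to NF-kB signalling in human cells. Granulocyte development is one of the programs that GM-CSF drives in marrow cultures.

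The mature sequences of the family are printed first to show what the members share and where they differ. They come from RefSeq (build GRCm38.p6), which held 3 of the 4 members, miR-301b-3p being the one not matched. Seeds, bases 2 to 8 from the 5′ end, are in capitals.
miR-130a-3p: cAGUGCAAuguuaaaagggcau
miR-130b-3p: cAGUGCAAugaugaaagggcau
miR-301a-3p: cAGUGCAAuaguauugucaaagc
miR-721: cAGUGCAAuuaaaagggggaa
All 4 carry the seed AGUGCAA and share their first 9 bases. miR-130a-3p and miR-130b-3p were identical at 20 of 22 bases, and the 2 differences, counted from the 5′ end with the base of miR-130a-3p first, were U11A and A13G. Their last 9 bases are the same. By contrast, miR-130b-3p and miR-301a-3p matched at 11 of 22 bases in an ungapped comparison from the 5′ end. miR-721, a mouse miRNA outside the name rule, matched miR-130b-3p at 15 of 21. Of 1679 mature mouse names in the RefSeq table, 7 have this seed, and 4 of these are on the array. The other 3, miR-130c, miR-6341 and miR-6389, are not analysed here.

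In the genome (GRCm38.p6) the mature miR-130b-3p lies at chr16:17124071-17124092 on the minus strand. The hairpin of miR-301b lies on the same strand at chr16:17124400-17124496, upstream of that of miR-130b, with 257 bases between them. Both hairpins lie within the span of 1 protein-coding gene in the RefSeq gene table. miR-301a-3p lies at chr11:87113054-87113076 on the plus strand, within Ska2, a gene of chromosome segregation. miR-130a-3p lies at chr2:84741116-84741137 on the minus strand, where the table has no overlapping gene. The hairpins of the detected miR-130b and miR-301a show how each -3p arm (capitals) stands after its -5p arm, which occupies bases 13 to 34 in the first and 14 to 35 in the second.
Mir130b: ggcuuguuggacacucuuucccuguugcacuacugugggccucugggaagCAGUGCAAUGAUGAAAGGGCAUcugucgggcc
Mir301: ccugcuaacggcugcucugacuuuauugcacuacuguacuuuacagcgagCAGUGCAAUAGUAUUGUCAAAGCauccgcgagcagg
The -5p arms have seeds of their own, and are shown because none of them was called detected.
miR-130a-5p: gCUCUUUUcacauugugcuacu
miR-130b-5p: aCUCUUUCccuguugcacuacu
miR-301a-5p: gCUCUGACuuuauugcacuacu
miR-301b-5p: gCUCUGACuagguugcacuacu

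Detected signal of the family came from miR-130b-3p and miR-301a-3p. Of the 4 members, 2 were called detected on both arrays and the other 2, miR-130a-3p and miR-301b-3p, on neither. Over all names on the array, 27.0% were detected on both. The level of a name is the sum of the scanner software's total signals over its probes, in arbitrary intensity units, with the deposited error of the same software after ±. Signals depend on the probe as well as on the miRNA, so that levels of different names cannot be ordered as amounts.

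miR-130b-3p gave a summed signal of 110.6 ± 9.12 with GM-CSF plus IL-6 and 116 ± 9.57 with GM-CSF only. All 40 of its spots were well above background on each array. The signal was lower with IL-6 by 5.91, less than the combined deposited error of 13.2. Its brighter probe gave totals of 83.5 and 88.2, and its dimmer probe 27.0 and 28.2, so that both probes leaned the same way before any scaling. The median log2 ratio (IL-6 culture over the other) of all names detected on both arrays was also negative, at -0.06. Spots of the brighter probe ran from 189.9 to 256 with IL-6 (median 223) and from 202 to 249 without it (median 230.3). The spots of the cultures overlapped.

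miR-301a-3p gave a summed signal of 53.9 ± 5.20 with IL-6 and 56.8 ± 5.45 without it. The signal was lower with IL-6 by 2.87, again less than the combined deposited error of 7.53. Its brighter probe gave 45.5 and 48.2, and its dimmer probe 8.47 and 8.61. In all, 32 of 40 spots with IL-6 and 31 of 40 without were well above background, with every spot of the brighter probe among them. Spots of the brighter probe ran from 100.1 to 136 with IL-6 (median 122) and from 109 to 152 without it (median 122). The cultures again overlapped.

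**Figure D1:**
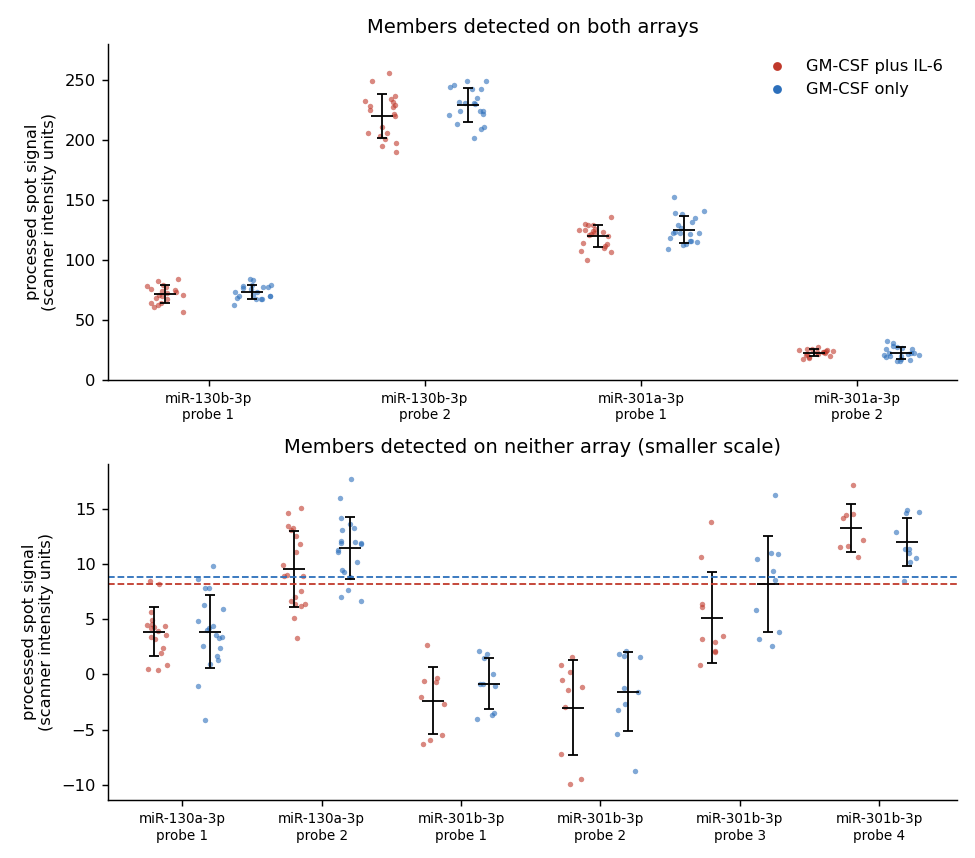
Processed spot signals (scanner intensity units, linear axes) of every probe of the 4 members, 1 point per spot after outlier spots were left out, with the mean and SD over spots in black. The upper panel holds the members detected on both arrays and the lower those detected on neither, with dashed lines at the 95th percentile of negative control spots (8.25 with IL-6 and 8.81 without). Spots of the cultures overlap for every probe.

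The closest relative of miR-130b-3p by sequence, miR-130a-3p, was called undetected in both cultures. Its summed signal was 5.10 ± 2.39 with IL-6 and 5.93 ± 2.40 without it, and 0 of its 40 spots were well above background on either array. One of its probes stood slightly above the negative control spots. Spots of that probe averaged 9.55 ± 3.45 (SD, 20 spots) with IL-6 and 11.5 ± 2.84 (SD, 20 spots) without it. Negative control spots averaged 1.99 ± 3.71 (SD, 974 spots) and 2.61 ± 3.82 (SD, 991 spots). Above the 95th percentile of these controls lay 12 of 20 and 17 of 20 spots of that probe. Of the kept spots of the other probe, 1 of 18 with IL-6 and 1 of 20 without lay above it. The probes' sequences are not in the files used here, so how far the 2-base difference separates miR-130a-3p from miR-130b-3p on this array was not tested. No fold is given, since both values are below the detection limit.

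miR-301b-3p, encoded beside miR-130b, came nearest to detection among the undetected members. Its summed signal was 2.49 ± 1.69 with IL-6 and 3.45 ± 1.69 without it. Of its 40 spots, 1 was well above background with IL-6 and 0 without it. That spot, at 57.6, was left out as an outlier. The 4 probes differed widely, as totals ran from -0.57 to 2.53 on the first array and from -0.30 to 2.32 on the second. The software calls a name detected when the total of any of its probes exceeds 3 times the error of that total; this rule gave the deposited flag for all 1080 names on each array. The best probe of miR-301b-3p reached 2.91 and 2.69 errors, just short of 3. Among undetected names 4 of 772 with IL-6 and 11 of 779 without had a higher value. The kept spots of this probe were above the 95th percentile of the negative controls in 8 of 8 and 9 of 10 cases. With IL-6, however, 2 more spots of this probe had been left out as outliers, and both lay below that percentile. The best probe of miR-130a-3p reached 2.13 and 2.57 errors. A signal under this limit does not show that either miRNA was absent from the cells.

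The -5p arms were farther from detection. The best probe of miR-130b-5p stood at 1.76 errors with IL-6 and 0.81 without it. For miR-130a-5p the values were 0.24 and 0.33, for miR-301a-5p 0.21 and 0.24, and for miR-301b-5p -0.51 and 0.01. No spot of these 4 names was well above background on either array. The best probe of miR-130b-5p nevertheless had 4 of 8 kept spots above the 95th percentile of the negative controls with IL-6, and 1 of 10 without it. Its 2 spots left out as outliers with IL-6, at 2.17 and 2.94, lay below that percentile. In both hairpins with a detected -3p arm, the detected signal was thus that of the -3p arm. The detected members had their best probes between 9.37 and 9.81 errors, and the dimmer probe of miR-301a-3p stood at 4.53 and 4.58.

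**Figure D2:**
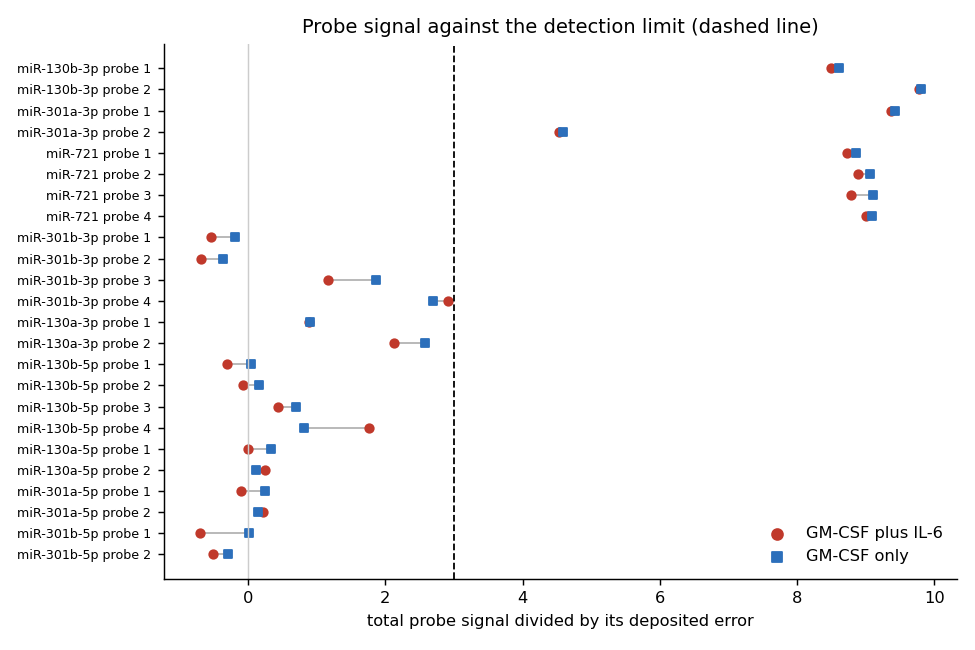
Total signal of each probe divided by its deposited error (horizontal axis, no unit) for the 8 names of the family and miR-721, with a circle for GM-CSF plus IL-6 and a square for GM-CSF only. The dashed line is the detection limit of 3. Every probe of miR-130b-3p, miR-301a-3p and miR-721 lies to its right, and every probe of the other 6 names to its left.

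The comparison that the design implies asks whether adding IL-6 to GM-CSF altered these miRNAs, and both detected members were nearly the same in the cultures. Of the 2, 0 differed by 2-fold or more, and 1.03% of the 292 names detected on both arrays did. At 1.5-fold the members numbered 0 as well, beside 3.42% of all names. Ratios are given as log2 of the culture with IL-6 over that without it, minus the median of that value over the 292 names, and are called relative log2 ratios. This centring was used because scaling by the 75th percentile left the median of all names at 0.12.

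miR-130b-3p had a relative log2 ratio of -0.01 ± 0.03 (spot SE), and miR-301a-3p one of -0.01 ± 0.03. The 95% interval from spot error ran from -0.06 to 0.04 for miR-130b-3p and from -0.08 to 0.06 for miR-301a-3p. With the deposited errors, which include a multiplicative term, the intervals widened to between -0.34 and 0.32, and between -0.40 and 0.37. None of these intervals covers the spread between cultures. By probe the values were 0.0007 and -0.01 for miR-130b-3p, and -0.02 and 0.04 for miR-301a-3p, each within 1 spot SE of 0. Of the 292 names, 139 lay below both members and 151 above both, so that the pair sat close to the middle of the array.

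Before centring, the log2 ratios were -0.08 and -0.07, beside -0.06 for the median of all names. In the authors' deposited table of log2 values, miR-130b-3p stands at 0.51 with IL-6 and 0.59 without it, and miR-301a-3p at -0.53 and -0.45. The authors' deposited table lists miR-130a-3p, miR-301b-3p and the -5p arms at its floor of -9.60 in both columns. The cultures are bulk samples, in which fewer cells of a type and less RNA per cell cannot be told apart.

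**Figure D3:**
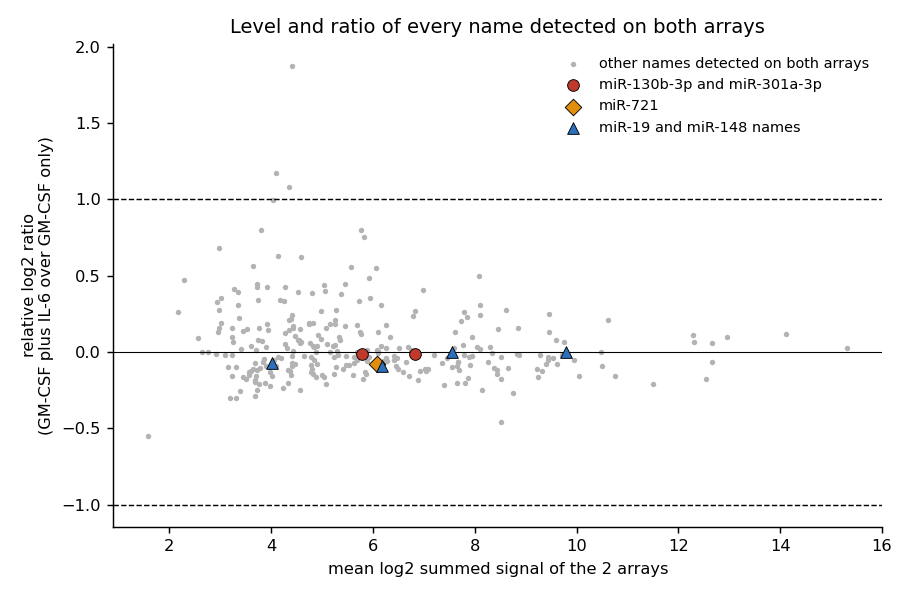
Relative log2 ratio (vertical axis, IL-6 culture over GM-CSF only) against the mean log2 summed signal of both arrays (horizontal axis) for the 292 names detected on both. Dashed lines mark 2-fold. miR-130b-3p and miR-301a-3p lie at -0.01, close to the centre line.

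Among 140 other mouse names detected on both arrays at or above the median level, the name with the relative log2 ratio nearest to that of miR-130b-3p was its family member miR-301a-3p. The difference was 0.0004, with a spot SE of 0.04. Next came miR-1949, with signals of 442 and 466 and a relative log2 ratio of -0.01. The third was miR-20a-5p, of the proliferation-linked miR-17~92 cluster, at 814 and 860.4 and -0.02. With 2 arrays this likeness rests on a single ratio per name, and 17 of the 292 names, the pair included, lay as near to the median as miR-130b-3p or nearer.

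miR-721, which has the same seed and whose gene lies within Cux1, was detected in both cultures. Its summed signal was 64.3 ± 3.63 with IL-6 and 70.9 ± 3.92 without it. Before scaling, the signal was lower with IL-6 by 6.58, more than the combined deposited error of 5.35. All 4 of its probes were lower with IL-6 before scaling, and the median log2 ratio of all names was also negative (-0.06). After centring, miR-721 had a relative log2 ratio of -0.08 ± 0.03 (spot SE). With the deposited errors its 95% interval ran from -0.30 to 0.15. By probe the relative log2 ratio was -0.03, -0.07, -0.20 and -0.01. The difference from miR-130b-3p was -0.07 ± 0.04 and that from miR-301a-3p -0.07 ± 0.04 (spot SE). Both were under 2 spot standard errors.

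Names whose seed holds most of the family's seed at a shifted position were set beside it. Their sequences show the shift, as miR-19 carries GUGCAA (bases 3 to 8 of the family) from base 2, and miR-148 and miR-152 carry CAGUGCA (bases 1 to 7 of the family) from base 2.
miR-19a-3p: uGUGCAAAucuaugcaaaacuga
miR-19b-3p: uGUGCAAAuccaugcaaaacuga
miR-148a-3p: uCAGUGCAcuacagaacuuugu
miR-148b-3p: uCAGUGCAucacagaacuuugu
miR-152-3p: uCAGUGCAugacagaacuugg
Of these 5, 4 were detected on both arrays, and miR-152-3p on neither. The signals of miR-19b-3p, a growth-promoting member of the miR-17~92 cluster, were 873 in the IL-6 culture and 912 in the other, and miR-19a-3p gave 183 and 191. Their relative log2 ratios were 0.001 ± 0.02 and -0.0005 ± 0.02 (spot SE). miR-148a-3p, which has been reported to target DNA methyltransferases in human cells, gave 68.9 and 76.7 with a relative log2 ratio of -0.09 ± 0.02. For miR-148b-3p the signals were 15.5 and 17.0, with -0.07 ± 0.05. From the deposited errors the SE was 0.16 for miR-148a-3p and 0.35 for miR-148b-3p. The median of the 4 was -0.04, beside 0 for all names by construction, and 0 of them reached 1.5-fold.

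A list of 10 miRNAs linked to granulocyte differentiation was set beside the family. On both arrays 8 were detected, and miR-182-5p and miR-9-5p on neither. Their median relative log2 ratio was -0.05, with 6 of the 8 below the median of all names and 0 at 1.5-fold. miR-223-3p, the miRNA most typical of granulocytes, had signals of 6239 and 6807 and a relative log2 ratio of -0.06 ± 0.01 (spot SE). Its SE from the deposited errors was 0.16. miR-27a-3p, which targets Runx1 and is induced during granulocyte differentiation, had 352 and 377 (-0.03). miR-30c-5p, reported downstream of C/EBP-alpha in human cells, had 73.7 and 79.1 (-0.04).

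The ends of this list lay farther from the median than the family did. miR-328-3p has been reported in human cells to act as a decoy for an RNA-binding protein that blocks C/EBP-alpha translation. It gave 21.8 with IL-6 and 16.99 without it, a relative log2 ratio of 0.42 ± 0.05 (spot SE). Its SE from the deposited errors was 0.29. Of its 40 spots, 33 with IL-6 and 22 without it were well above background. miR-155-5p, a miRNA of macrophage activation, gave 254 and 315 (-0.25 ± 0.02). miR-34a-5p, a target of p53, gave 152 and 184 (-0.21 ± 0.03). The fibrosis-linked miR-29a-3p gave 980.2 and 1141 (-0.16 ± 0.02), and its relative miR-29b-3p 311 and 317 (0.03 ± 0.02). From the deposited errors the SE was 0.17 for each of miR-155-5p, miR-34a-5p and miR-29a-3p, and 0.19 for miR-29b-3p.

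**Figure D4:**
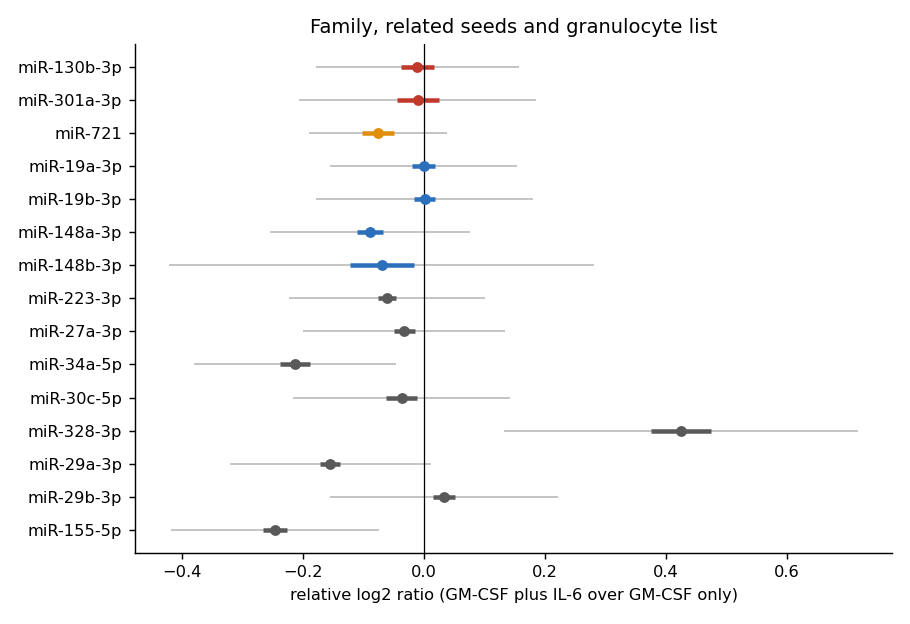
Relative log2 ratio (horizontal axis, IL-6 culture over GM-CSF only) of the 2 detected family members, miR-721, the shifted-seed names and the granulocyte list, with 1 array per culture. Thick bars are the spot SE and thin grey bars the SE from the deposited errors. miR-130b-3p and miR-301a-3p lie at -0.01, and miR-328-3p at 0.42 and miR-155-5p at -0.25 mark the extremes.

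The labelled cell type was checked against marker miRNAs. Of 4 names listed as myeloid, 3 were detected on both arrays (miR-142-5p, miR-142-3p and miR-223-3p), and miR-223-5p on neither. Whether the listed names separate myeloid cells from other blood cells was not tested. Of 4 stromal names 0 were detected, with summed signals from -2.13 to 0.64 with IL-6 and from -1.42 to 0.34 without it. The erythroid miR-451 (8.10 and 10.4), the lymphoid miR-150-5p (54.2 and 62.6), the endothelial and megakaryocytic miR-126-3p (11.0 and 12.8) and the epithelial miR-141-3p (8.51 and 7.80) and miR-200c-3p (12.4 and 14.99) were detected on both. The summed signals with IL-6 and without it were 6.88 and 9.11 for 2 erythroid names, 11.4 and 14.4 for 2 endothelial and megakaryocytic names, and 19.5 and 21.7 for 3 epithelial names. miR-144-3p, miR-126-5p and miR-205-5p were not detected on either array. The sums include these names, and the signals of miR-144-3p (-1.23 and -1.31) and miR-205-5p (-1.35 and -1.13) were negative. The erythroid sum is therefore below the signal of miR-451 alone. The part of such cells in the signals of the family was not tested.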

How the data were processed

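Bone marrow cultures with GM-CSF plus IL-6 or GM-CSF only were measured on 1 array each, and both arrays lay on 1 slide and in 1 scan. The authors extracted intensities with Agilent Feature Extraction 10.7.1.1, which subtracted background with a spatial detrend and did not scale one array to the other, per the file headers. A table of log2 values deposited by the authors sets undetected names at a floor, and the sources used here do not give the origin of its array constants.

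Total probe signals, as deposited, were summed over each name's probes to give its level, and detection was the deposited flag. Log2 ratios were centred on the median of the 292 names detected on both arrays. Replicate spots free of outlier flags gave the spot errors, and deposited probe errors were combined in quadrature. With 1 array per group no test was run; a 2-fold size rule took its place. Of all spots, 0 were saturated, and replicate spots had a median coefficient of variation of 8.18% with IL-6 and 7.42% without it, per the file headers.

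Named were every arm of the family, detected members of the lists, and the 3 names nearest in ratio to the brightest member. Members and lists were chosen with earlier results of these data known. Of the 3 erythroid names, miR-486-5p is not analysed here. Alternatives were normexp (offset 50), mean log2 spot signals (floor 1), quantile and loess (span 0.7) normalization, the deposited table, other sets of names for the median, odd or even spots, other scaling, other detection rules and 1.5-fold. Calculations ran in R 4.3.3 (limma 3.58.1, for normexp) and Python 3.11.15 (matplotlib 3.10.9, statsmodels 0.14.6, pandas 2.3.3, numpy 2.4.6). The ratio function was tested on simulated data.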

Additional observations from a re-analysis of the deposited data

How the results depend on the processing

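The relative log2 ratios of miR-130b-3p and miR-301a-3p stayed within 1.5-fold under all 11 alternatives. Scaling by the 75th percentile with no centring gave 0.11 for miR-130b-3p, 0.11 for miR-301a-3p and 0.11 for the family median, which is the shift of all names. With no scaling the values were -0.0751 for miR-130b-3p and -0.0749 for the family median. The other 9 alternatives for miR-130b-3p and 10 for miR-301a-3p kept the value inside its 95% interval from spot error. Neither has a settled direction, as 3 of 11 alternatives lay above 0 for miR-130b-3p and 4 of 11 for miR-301a-3p. The number of members detected stayed at 2 under both other detection rules, and the number apart by 2-fold stayed at 0 with another fold or scaling. No value is given for miR-130a-3p and miR-301b-3p, which are below the detection limit. No paired analysis was possible because each culture has 1 array.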
